A study of Mus musculus with 12 samples.

Results

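Mouse embryonic fibroblasts (MEFs) were compared with mouse embryonic stem cells (ESCs), the somatic and the pluripotent ends of a study of reprogrammed cells. Every miRNA of the table with at least 1 read in at least 2 of the 3 MEF and 3 ESC libraries was taken, which gave 856 of 1042 miRNAs. Of the other 186, 145 had no read in any of these 6 libraries and 41 had reads in exactly 1. The MEFs had the C57B6/129SvJae F1 background, that of the study's reprogrammed lines, and were grown in MEF medium. The ESCs were of the line E14 (129/ola), grown in medium with leukaemia inhibitory factor on a layer of irradiated MEFs. No treatment was given to either group. The replicates, MEF 13, 14 and 15 and ESC 2, 3 and 4, were batches of RNA from a single line of each type. Strain, medium and feeder cells differed along with the cell type and cannot be told apart from it. The limma p-values measure the spread between batches of RNA only, estimated over all 12 libraries of the study's 5 groups.

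A miRNA is cut from a hairpin RNA that can yield a mature strand from its 5' arm (5p) and another from its 3' arm (3p). Bases 2 to 8 of the mature strand, the seed, do most of the pairing with target mRNAs, so miRNAs that share a seed are counted as a family. In mouse ESCs the miR-290 to miR-295 and miR-302 clusters are known for supporting rapid division, and members of both share a seed that overlaps that of the miR-17 family. The let-7 family accumulates as cells differentiate and is held back in pluripotent cells by the protein LIN28. In mesenchymal cells, miR-143, miR-145, miR-199 and miR-214 are typical miRNAs, while miR-206, miR-1 and miR-133 are made in skeletal muscle and its precursors.

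The sequences of the miRNAs that carried the comparison are given 5' to 3' from RefSeq (GRCm38.p6), with the seed in capitals. RefSeq held a mature sequence for 690 of the 856 miRNAs. The first set shows the seed shared by the miR-290 and miR-302 clusters and, shifted by a single base, that of the miR-17, miR-106a and miR-106b clusters. All 8 were lower in MEFs.
miR-291a-3p: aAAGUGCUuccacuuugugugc
miR-294-3p: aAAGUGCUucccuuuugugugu
miR-295-3p: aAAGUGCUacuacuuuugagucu
miR-302b-3p: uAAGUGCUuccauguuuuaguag
miR-20b-5p: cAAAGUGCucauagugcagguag
miR-106a-5p: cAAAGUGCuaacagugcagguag
miR-17-5p: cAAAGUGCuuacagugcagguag
miR-93-5p: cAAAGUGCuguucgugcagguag

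The second set holds abundant miRNAs with a different share of reads in each cell type. miR-182-5p and miR-183-5p had the larger share in ESCs, and miR-21-5p, miR-206-3p and 3 members of the let-7 family the larger share in MEFs.
miR-182-5p: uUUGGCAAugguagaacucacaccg
miR-183-5p: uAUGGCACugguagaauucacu
miR-21-5p: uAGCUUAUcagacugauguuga
miR-206-3p: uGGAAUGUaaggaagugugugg
let-7a-5p: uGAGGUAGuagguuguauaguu
let-7c-5p: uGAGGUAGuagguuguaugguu
let-7f-5p: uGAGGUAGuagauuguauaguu

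The third set holds miRNAs with the same seed that differed in opposite directions between the cell types, the miR-181 family and the pair of miR-28-5p and miR-708-5p.
miR-181a-5p: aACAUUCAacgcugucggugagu
miR-181b-5p: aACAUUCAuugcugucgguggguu
miR-181c-5p: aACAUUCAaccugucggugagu
miR-181d-5p: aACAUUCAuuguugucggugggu
miR-28-5p: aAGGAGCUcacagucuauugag
miR-708-5p: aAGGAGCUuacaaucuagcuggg

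Values were those deposited, a variance stabilizing transformation (VST) of normalized reads on a log2 scale, and a difference is the mean VST in MEFs minus that in ESCs. Reads were recovered from them and numbered 7867489 to 8608657 in the MEF libraries and 4863360 to 5771393 in the ESC libraries. Across the 856 miRNAs, Pearson's r was 0.972 to 0.98 between MEF libraries, 0.976 to 0.979 between ESC libraries and 0.733 to 0.77 between a MEF and an ESC library. Each r was taken over miRNAs, so its points are not replicates. The labelled cell types were set beside lists of markers, which were chosen with earlier results of these data known. The 24 ESC markers, from the miR-290 and miR-302 clusters, held 10.2% to 12.2% of reads in ESCs and at most 0.00129% in MEFs. The 16 fibroblast markers had reads in all 6 libraries and held 8.59% to 11.9% of reads in MEFs and 4.79% to 5.19% in ESCs. Skeletal muscle markers held 10.7% to 12.7% of reads in MEFs, as described below.

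By limma, 618 of the 856 miRNAs (72.2%) passed a Benjamini-Hochberg adjusted p of 0.05. Of these, 310 were higher in MEFs (36.2% of those tested) and 308 lower (36.0%), and for 630 miRNAs (73.6%) the MEF and ESC values did not overlap. The difference was at least 1 log2 unit for 251 of those higher and 272 of those lower, and at least 3 for 83 and 133 with the deposited scaling. Among the lower calls 49 had no read in any MEF library, and among the higher calls 23 had none in any ESC library, so that the size of these differences depends on the value given to 0 reads. The split into higher and lower depended on how the libraries were scaled to each other. Against the deposited scaling, MEF values moved by 0.637 upwards with upper quartile scaling, by -0.508 with TMM-type scaling and by -0.892 with scaling to the library total. The share of calls that were higher in MEFs was then 61.1%, 38.5% and 30.6%, against 50.2% with the deposited values. For lists and clusters a direction is therefore given below with the number of miRNAs that were called the same way under the deposited scaling and all 4 other scalings, which held for 426 of the 856 (49.8%), with 180 higher and 246 lower in MEFs.

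**Figure D1:**
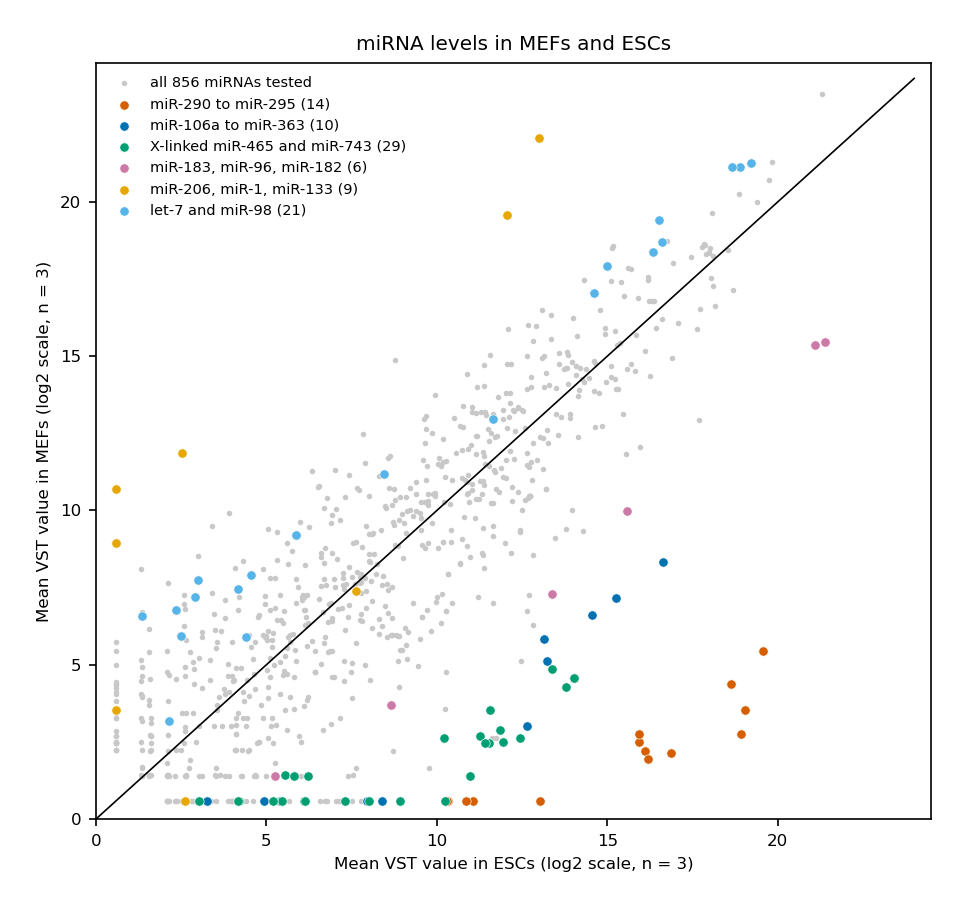
Mean VST value of each of the 856 miRNAs in MEFs (vertical axis, log2 scale, n = 3) against that in ESCs (horizontal axis, n = 3), with the line of equal values. The miR-290 to miR-295 cluster lies at the lower right, with ESC values of up to 19.56 and MEF values under 6, and the muscle miRNAs miR-206-3p and miR-1a-3p lie far above the line.

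The most abundant miRNAs showed how different the pools were. In MEFs miR-21-5p, which is abundant in many differentiated cells, held 26.4% ± 1.27 (SD, n = 3) of miRNA reads, against 10.8% ± 1.15 (SD, n = 3) in ESCs. In ESCs miR-182-5p held 11.5% ± 0.452 (SD, n = 3), more than miR-21-5p in ESC 4 but less in ESC 2 and ESC 3, and in MEFs it held 0.102% ± 0.00614 (SD, n = 3). The 10 most abundant miRNAs of a library held 68.7% to 69.9% of its reads in MEFs and 52.2% to 52.7% in ESCs, and 37 to 39 miRNAs made up 90% of reads in MEFs against 63 to 66 in ESCs. The pool of the MEFs was thus the more concentrated in every library. Besides miR-21-5p, the 10 most abundant in MEFs were miR-206-3p, miR-143-3p, let-7f-5p, let-7c-5p, let-7a-5p, miR-379-5p, miR-378-3p, miR-541-5p and miR-99b-5p. In ESCs, by mean share, the 10 were miR-182-5p, miR-21-5p, miR-183-5p, miR-143-3p, miR-379-5p, miR-293-3p, miR-541-5p, let-7f-5p, miR-295-3p and miR-292-5p.

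**Figure D2:**
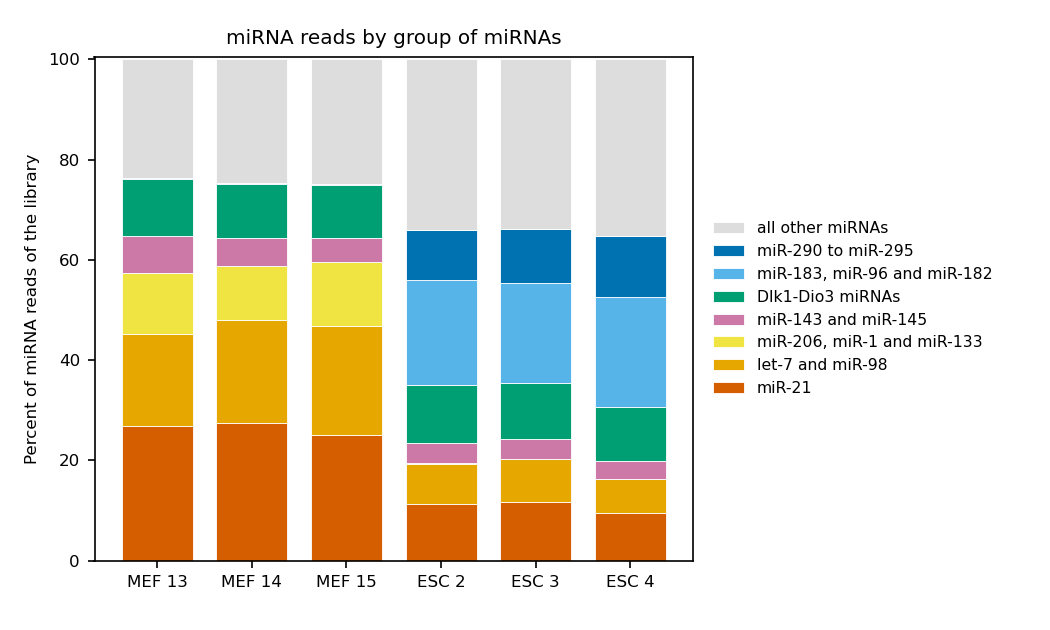
Percent of the miRNA reads of each library (vertical axis) held by 7 groups of miRNAs and by all others, for the 3 MEF and 3 ESC libraries. The miR-183 cluster filled 20.1% to 22.0% of ESC reads and at most 0.214% of MEF reads, while Dlk1-Dio3 miRNAs held 10.6% to 11.6% in all 6 libraries.

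Shares were compared between the cell types with a two-sided exact permutation test for each of the 40 lists of miRNAs. With 3 libraries against 3 the smallest p is 0.1, which 32 lists reached, and the smallest adjusted p was 0.125. With this test no list can pass 0.05, and shares are given as values with their SD.

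The miR-290 to miR-295 cluster, which lies at chr7:3218626-3220841 on the plus strand (GRCm38), had the largest median difference of the 40 lists, -13.68. All 14 of its miRNAs were lower in MEFs under every scaling, with differences from -16.17 to -9.72 on the log2 scale. miR-293-3p, the most abundant of them, had 152107, 180485 and 172382 reads in ESC 2, 3 and 4 and 26, 5 and 3 reads in MEF 13, 14 and 15. That was a difference of -14.11 (SE 0.57, limma adjusted p = 9.6e-10), with groups that were far apart. miR-292-5p had 96433, 108679 and 117226 reads in ESCs and 23, 0 and 0 in MEFs, a difference of -16.17 (SE 1.29, limma adjusted p = 3.6e-07). That value depends on what the transformation gives to 0 reads, as for every miRNA with a library at 0. Summed over the libraries and divided by their size factors, its reads were 11848-fold higher in ESCs, with a 95% exact interval of 7896 to 18690 for counting error. Ratio and interval rest on MEF 13, which held all 23 MEF reads, and in the other MEF libraries it was at 0, so that without MEF 13 the fold has a lower bound only. miR-295-5p, miR-291b-3p and miR-294-5p had no read in any MEF library, and their normalized reads in ESCs were at least 509-fold, 130-fold and 114-fold higher, taking 3 reads per library as the floor. Of the traces in MEFs most were in MEF 13, where the cluster held 0.00125% of reads against 8.9e-05% in MEF 14 and 8.69e-05% in MEF 15. In ESC 2, 3 and 4 it held 10.1%, 10.6% and 12.1%. Of its other members, miR-291a-5p differed by -14.74, miR-292-3p by -13.91, miR-290-5p by -13.44 and miR-293-5p by -13.16, each with at most 7 reads in a MEF library.

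The miR-302 and miR-367 cluster, at chr3:127545228-127545807, was lower in MEFs in 8 of 8 members under every scaling, but at levels in ESCs far under those of the miR-290 cluster. miR-302b-3p, which shares its seed with miR-291a-3p, had 662, 726 and 671 reads in ESCs and 3, 0 and 1 in MEFs. miR-302a-3p had no read in MEFs and 43, 65 and 48 in ESCs, at least 14.5-fold higher. The whole cluster held 0.0194% ± 0.000468 (SD, n = 3) of ESC reads. Of the AAGUGCU seed, which held 4.30% ± 0.576 (SD, n = 3) of ESC reads, nearly all therefore came from miR-295-3p, miR-291a-3p and miR-294-3p.

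Of the 3 related clusters with the AAAGUGC seed, the miR-106a to miR-363 cluster had the largest median difference. Its differences, from -9.61 to -2.68, reached into those of the miR-17 cluster, from -2.88 to -0.16. The differences of the miR-106b cluster, from -2.25 to -0.78, lay within those of the miR-17 cluster. The miR-106a to miR-363 cluster on the X chromosome (chrX:52741693-52742567, minus strand) was lower in MEFs in 10 of 10 members under every scaling, with a median of -7.88. There miR-20b-5p had 19382, 26494 and 20853 reads in ESCs and 53, 62 and 61 in MEFs, a difference of -8.30 (SE 0.14, limma adjusted p = 4.2e-13). The miR-17 to miR-92a-1 cluster (chr14:115043671-115044506, in Mir17hg) was lower in 9 of 12 members, but in only 4 of them under every scaling, with a median of -1.03. There miR-17-5p had 26464, 34460 and 29569 reads in ESCs and 13509, 12166 and 12524 in MEFs, a 1.99-fold difference (limma adjusted p = 3.2e-05) that kept its call under every scaling. The miR-106b to miR-25 cluster, which lies within the Mcm7 gene, was lower in 6 of 6 members and in 3 of them under every scaling, with a median of -1.43. There miR-93-5p had 30870, 23439 and 24880 reads in MEFs and 85106, 106910 and 84005 in ESCs, a difference of -1.56 (SE 0.16, limma adjusted p = 3.6e-06). miR-106b-5p differed by -1.96 and miR-18a-5p of the miR-17 cluster by -0.78. With this seed, 6 miRNAs together held 4.34% ± 0.182 (SD, n = 3) of reads in ESCs and 0.762% ± 0.0520 (SD, n = 3) in MEFs. miR-20b-5p and miR-106a-5p gave 0.424% and 0.164% in ESCs, and 0.00072% and 0.000316% in MEFs.

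**Figure D3:**
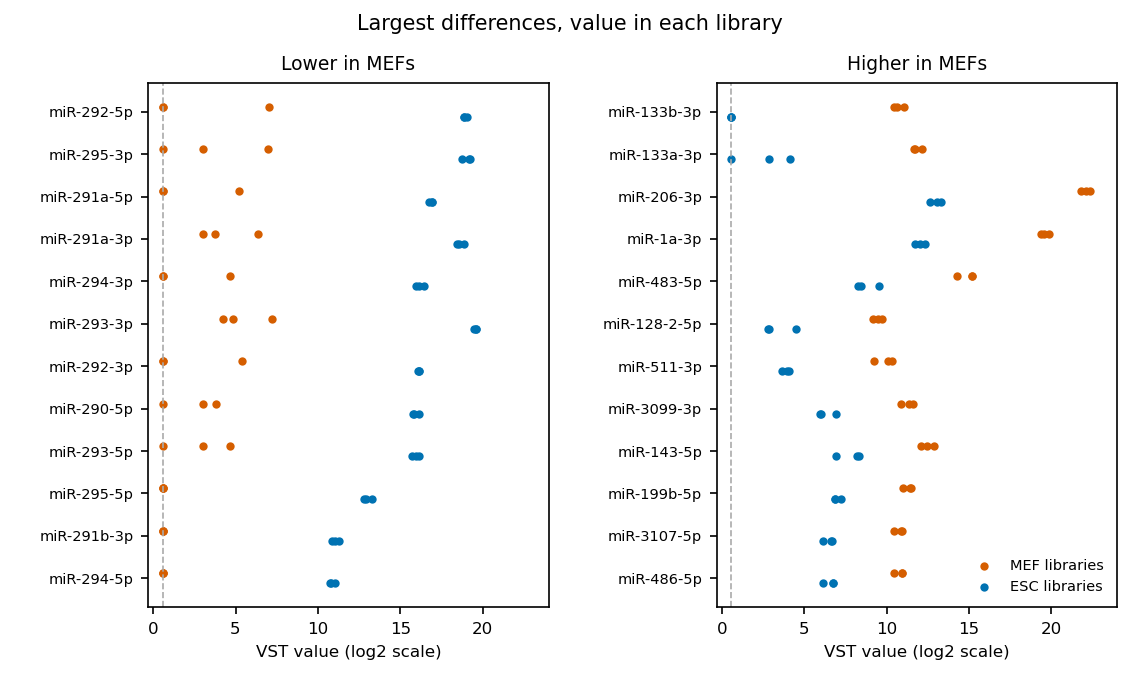
VST value (horizontal axis, log2 scale) in each MEF and ESC library for the 12 miRNAs with the largest differences in each direction among called miRNAs without overlap between the groups and with 100 reads or more in each library of the higher group. The dashed line marks 0 reads. All 12 of the lower set belong to the miR-290 to miR-295 cluster, and MEF 13 is the MEF library with the highest value wherever MEF reads were found.

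The miR-183, miR-96 and miR-182 cluster (chr6:30165918-30169737, minus strand), known from sensory organs and stem cells, held 21.0% ± 0.945 (SD, n = 3) of ESC reads and 0.200% ± 0.0149 (SD, n = 3) of MEF reads. All 6 of its miRNAs were lower in MEFs under every scaling, with a median of -5.66. miR-182-5p had 540825, 652096 and 601853 reads in ESCs and 8988, 8404 and 7667 in MEFs, and differed by -5.92 (SE 0.12, limma adjusted p = 2.3e-12), a 60.5-fold difference. miR-183-5p was 53.0-fold lower in MEFs and miR-96-5p 48.3-fold. The miR-200 family with miR-141 and miR-429, which maintains the epithelial state, was also lower in MEFs in 10 of 10 members under every scaling, with a median of -4.37. miR-200c-3p, its most abundant member, had 15960, 15284 and 10926 reads in ESCs and 835, 586 and 982 in MEFs. miR-200b-3p differed by -4.96, miR-429-3p by -4.38 and miR-200a-3p by -4.37.

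Both large repeat-like clusters were lower in MEFs. The X-linked miR-465 and miR-743 cluster (chrX:66776757-66839125, minus strand), whose miRNAs are known from the testis, was lower in 29 of 29 members, in 28 of them under every scaling, with a median of -8.02. miR-741-3p had 2400, 2684 and 1927 reads in ESCs and 7, 4 and 4 in MEFs. The reads of miR-465a-3p, miR-465b-3p and miR-465c-3p, which have the same sequence, cannot be told apart. The miR-297, miR-466, miR-467 and miR-669 families, encoded in an intron of Sfmbt2, were lower in 66 of 70 members, in 64 of them under every scaling, with a median of -2.68. miR-669c-5p had 11247, 10241 and 8084 reads in ESCs and 1392, 1678 and 1864 in MEFs. The member called higher in MEFs, miR-669l-3p, had 1, 1 and 0 reads in MEFs and none in ESCs. Many of these miRNAs are near copies, and the counting may have split or shared their reads.

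The let-7 family was higher in MEFs. It held 20.2% ± 1.80 (SD, n = 3) of MEF reads, against 7.76% ± 0.961 (SD, n = 3) of ESC reads. Of its 21 members with miR-98, 20 were higher in MEFs, 19 of them under every scaling, and none was lower, with a median of 2.89. let-7c-5p had 412895, 409089 and 444165 reads in MEFs and 95207, 111145 and 68822 in ESCs, a difference of 2.47 (SE 0.17, limma adjusted p = 8.3e-08). let-7a-5p differed by 2.25, let-7f-5p by 2.04 and let-7b-5p by 2.89, each without overlap between the groups. The miR-99, miR-100 and miR-125 miRNAs, which share primary transcripts with let-7, were higher in 11 of 11 members, in 9 of them under every scaling, with a median of 2.94. miR-100-5p had 14602, 15661 and 15372 reads in MEFs and 2033, 2220 and 2514 in ESCs, without overlap between the groups (limma adjusted p = 2.1e-09). miR-125b-5p differed by 2.33 and miR-99b-5p by 1.56.

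The muscle miRNAs gave the largest differences on the MEF side. miR-206-3p held 10.0% ± 1.05 (SD, n = 3) of MEF reads, second only to miR-21-5p, and 0.0346% ± 0.00692 (SD, n = 3) of ESC reads. It had 922244, 692788 and 846563 reads in MEFs and 1304, 2308 and 1863 in ESCs, a difference of 9.08 (SE 0.18, limma adjusted p = 2.1e-12), or 542-fold. miR-1a-3p had 117771, 144754 and 175168 reads in MEFs and 1070, 977 and 735 in ESCs, a difference of 7.54. miR-133b-3p, encoded beside miR-206 at chr1:20679010-20682887, had 371, 267 and 292 reads in MEFs and none in ESCs, at least 123-fold higher. Of 9 muscle miRNAs measured, 7 were higher in MEFs under every scaling. miR-133a-3p, with 821, 620 and 622 reads in MEFs and 3, 0 and 1 in ESCs, differed by 9.33. The exceptions were both strands of miR-1b. miR-1b-3p had 22, 46 and 28 reads in MEFs and 37, 70 and 29 in ESCs and was not called. miR-1b-5p had none in MEFs and 4, 1 and 0 in ESCs, and its call as lower did not hold under every scaling. Skeletal muscle markers as a list held 10.7% to 12.7% of MEF reads, close to the 8.59% to 11.9% of the fibroblast markers, and the part of muscle cells in the MEF values was not tested.

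Mesenchymal miRNAs were higher in MEFs, by less than the muscle miRNAs. miR-143 and miR-145 were higher in 4 of 4 members and miR-199 and miR-214 in 6 of 6, all under every scaling, with medians of 3.42 and 3.40. miR-143-3p had 640635, 432615 and 377158 reads in MEFs and 197997, 228137 and 180568 in ESCs, a difference of 1.47 (SE 0.22, limma adjusted p = 8.1e-05). MEF 13 was the highest of the MEF libraries. miR-199a-3p had 93046, 64708 and 59062 reads in MEFs and 6595, 8808 and 8578 in ESCs, a difference of 3.40. Its sequence is that of miR-199b-3p, so reads of the pair cannot be told apart. miR-145-5p differed by 3.32, miR-199b-5p by 4.29 and miR-214-3p, encoded in Dnm3os, by 2.36. Of 11 miRNAs from the Hox clusters, which mark position along the body axis, 10 were higher in MEFs, 7 of them under every scaling. miR-10b-5p was 8.92-fold higher, with 31968, 30671 and 37018 reads in MEFs against 4825, 4917 and 3561 in ESCs. The exception was miR-196a-1-3p, which differed by -1.36. miR-196a-5p and miR-196b-5p, which share a seed, together held 1.05% ± 0.0594 (SD, n = 3) of MEF reads and 1.03% ± 0.212 (SD, n = 3) of ESC reads. Both were called higher in MEFs, 1 of them under every scaling. The cell cycle regulators miR-221 and miR-222 were higher in 4 of 4 members under every scaling, and so were both arms of miR-21 and of miR-22 and all 3 strands of miR-218. miR-31 was higher in both arms, in 1 of them under every scaling.

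The ESCs were grown on irradiated MEFs, and miRNAs typical of MEFs were therefore compared between the groups. Summed over the fibroblast markers, the share of reads was 50.7% of the mean share in MEFs in ESC 3 and 48.0% in ESC 4, and the highest in ESC 2. Single markers ranged from 3.77% for miR-143-5p in ESC 3 to 69.3% for miR-143-3p in ESC 2. The muscle markers summed to 0.414%, 0.482% and 0.438% of their mean share in MEFs. The part of feeder RNA in the ESC values was not tested, and fewer cells of a type cannot be told apart from less of a miRNA per cell. Markers named for other cell types held small shares of reads, and which cells made these miRNAs was not tested. Markers of blood cells held 0.120% to 0.133% of reads in MEFs and 0.162% to 0.186% in ESCs, neural markers 0.134% to 0.161% and 0.136% to 0.153%, and the endothelial miR-126 at most 0.0166% and 0.0983%. Epithelial markers held 0.427% to 0.588% of reads in ESCs and at most 0.0308% in MEFs, and the hepatic miR-122 at most 0.0110% in any library.

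**Figure D4:**
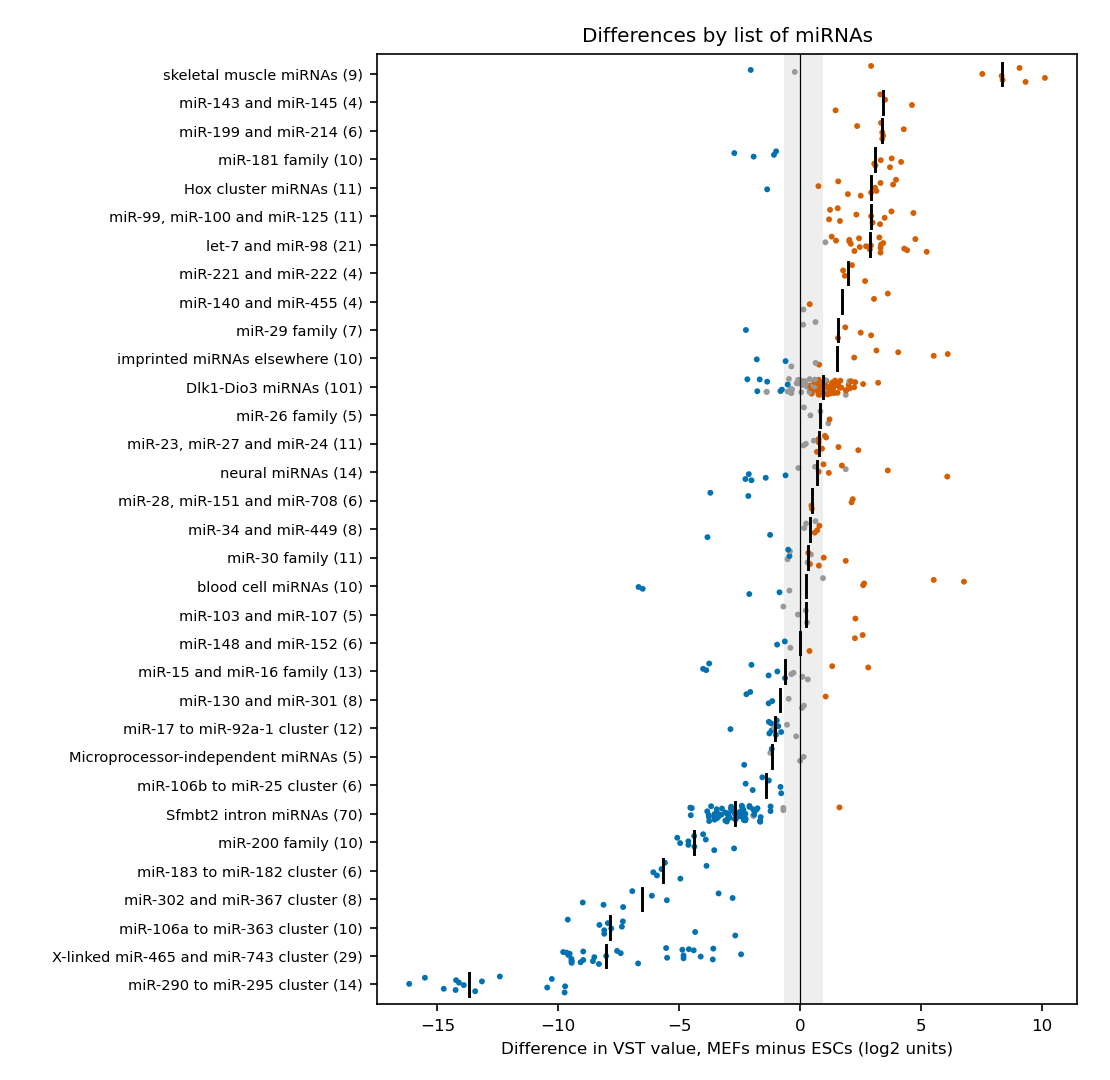
Difference in VST value between MEFs and ESCs (horizontal axis, log2 units) for each miRNA of the lists with at least 4 members tested, with the number tested in parentheses and the list's median as a bar. Orange points were called higher in MEFs, blue points lower and grey points neither. The grey band spans the differences that the other scalings can move across 0 and holds much of the Dlk1-Dio3 list.

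The Dlk1-Dio3 region on chromosome 12, an imprinted domain that encodes one of the largest sets of miRNAs in the mouse, gave calls that depended on the scaling. With the deposited values, 65 of its miRNAs were higher in MEFs, 7 were lower and 29 were not called, with a median of 0.95. Under every scaling 17 were higher and 4 lower. As a share of reads the region held 10.9% ± 0.357 (SD, n = 3) in MEFs, against 11.2% ± 0.419 in ESCs (SD, n = 3), a difference within the spread between libraries (exact permutation p = 0.5). miR-379-5p, its most abundant miRNA, had 367744, 269973 and 306378 reads in MEFs and 210527, 226002 and 145899 in ESCs, which came to shares of 3.84% and 3.72%. Within the region the miRNAs did not all move alike. miR-323-3p had 195, 298 and 400 reads in MEFs and 1115, 1279 and 1082 in ESCs, a difference of -1.77 (SE 0.22, limma adjusted p = 1.5e-05). miR-758-5p differed by -2.18, miR-758-3p by -1.67 and miR-543-3p by -1.36. These 4 were lower under every scaling. In contrast miR-434-3p, named after its values were seen, had 26014, 36062 and 33655 reads in MEFs and 7655, 10340 and 10084 in ESCs. It differed by 2.01 with the deposited values and was called higher in MEFs under every scaling.

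A list of imprinted miRNAs elsewhere, which did not take in the Sfmbt2 intron miRNAs, gave differences from -1.79 to 6.11, with a median of 1.51. The 4 strands of miR-296 and miR-298 lay between -0.60 and 0.79. miR-483-5p, from an intron of Igf2, had 3453, 7214 and 6719 reads in MEFs and 64, 82 and 157 in ESCs, a difference of 6.11 (SE 0.34, limma adjusted p = 1.9e-08). Of the 10 miRNAs in the list, from miR-296, miR-298, miR-335, miR-483 and miR-675, 6 were higher in MEFs, 5 of them under every scaling, and 2 were lower. Those lower were miR-298-5p, with a difference of -0.60 that turned sign under upper quartile scaling, and miR-335-3p, described with the hairpin arms.

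Sharing a seed did not mean sharing a direction. Of 27 seeds carried by at least 2 called miRNAs with 100 reads or more in each library of MEFs or of ESCs, 8 had all their called members higher in MEFs, 13 all lower and 6 some of each. For 3 of these 6 the opposite directions held under every scaling. In the miR-181 family, known from lymphocytes and muscle, miR-181a-5p had 9521, 14140 and 12060 reads in MEFs and 1610, 1910 and 1476 in ESCs, and miR-181b-5p differed by 3.79. miR-181c-5p, with the same seed, had 852, 860 and 820 reads in MEFs and 2022, 2316 and 2013 in ESCs, a difference of -1.08 (SE 0.15, limma adjusted p = 5.0e-05). miR-181d-5p differed by -0.99, but not under every scaling. The 3p strands of this family held the second such seed, with miR-181a-1-3p, named after its values were seen, higher and miR-181c-3p lower. The third was that of miR-28-5p and miR-708-5p. miR-28-5p had 8798, 8892 and 8511 reads in MEFs and 1930, 2378 and 2560 in ESCs, a difference of 2.18, and miR-708-5p had 811, 598 and 618 against 7940, 10761 and 13013, a difference of -3.71 (SE 0.22, limma adjusted p = 2.8e-08).

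In the other 3 seeds at least 1 of the directions did not hold under every scaling. miR-152-3p differed by 2.27 with the deposited values and was called higher in MEFs under every scaling. miR-148b-3p, of the same seed, differed by -0.95 without keeping its call under every scaling. miR-148a-3p differed by 0.39, a sign that turned under TMM-type and library total scaling. miR-195-5p and miR-497-5p, which share a transcript and were named after their values were seen, were lower in MEFs under every scaling, with differences of -4.01 and -3.76, whereas miR-322-5p of the same family was higher by 1.33 with the deposited values and not called under every scaling. In the miR-30 family the called differences of the named members were small, with 0.41 for miR-30a-5p and -0.49 for miR-30e-5p, and both turned sign under another scaling. Over the 11 strands of the family, differences ran from -0.52 to 1.89, with 5 higher, 1 of them under every scaling, and 2 lower.

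Some abundant miRNAs differed by little. Of the 81 miRNAs whose 95% interval of the difference lay within 1 log2 unit of 0, 61 had a mean of at least 100 reads. miR-103-3p had 72300, 53509 and 72463 reads in MEFs and 74060, 86303 and 87476 in ESCs, with an interval from -0.47 to 0.28. miR-140-3p, which is needed in cartilage, had 60914, 51921 and 58922 reads in MEFs and 56764, 62915 and 64481 in ESCs and differed by 0.14. The signs of both turned under another scaling. As a share of reads, miR-103-3p held 0.807% in MEFs and 1.59% in ESCs. miR-26a-5p differed by 0.43 and miR-130a-3p by 0.08, neither was called, and both signs turned with scaling to the library total. miR-541-5p of the Dlk1-Dio3 region differed by 0.59, miR-134-5p by 0.48, miR-30d-5p by 0.34 and miR-151-3p by 0.49, and each turned sign with scaling to the library total. The miR-23, miR-27 and miR-24 miRNAs were higher in 8 of 11 members, but in none under every scaling, and held 1.86% ± 0.0328 (SD, n = 3) of MEF reads, with 1.95% ± 0.180 (SD, n = 3) for ESCs. Of the 238 miRNAs that were not called, 180 had an interval that reached beyond 1 log2 unit.

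Lists named for blood and neural cells had shares of higher and lower members near those of all miRNAs tested, 36.2% and 36.0%. Of 10 blood cell miRNAs, 4 were higher and 4 lower, 3 and 3 of them under every scaling. miR-155-5p had 8502, 8600 and 8011 reads in MEFs and 1549, 1892 and 1339 in ESCs, a difference of 2.65, while miR-142-3p had 1236, 1337 and 1179 against 5251, 7452 and 6521, a difference of -2.10. Of 14 neural miRNAs, 6 were higher and 5 lower, 3 and 3 of them under every scaling. Among them miR-128-2-5p was higher by 6.09, with at most 4 reads in an ESC library, whereas miR-124-3p, the best known neuronal miRNA, differed by -2.01 at 61 to 108 reads in MEFs. The remaining miRNAs with the largest differences on the MEF side came from few reads. miR-511-3p, within the macrophage gene Mrc1, had 196, 249 and 112 reads in MEFs and 2, 3 and 3 in ESCs, and miR-3099-3p had 326, 594 and 484 and 13, 14 and 26. miR-486-5p and its near copy miR-3107-5p, whose reads cannot be told apart, differed by 4.24 and 4.25. Both arms of the endothelial miR-126 were lower in MEFs, miR-126-3p under every scaling with a difference of -1.75. The miR-29 family was higher in 4 of 7 members, all 4 under every scaling, with 1.57 for miR-29a-3p. Its member miR-29b-2-5p, with at most 12 reads in a library, was lower, but not under every scaling. The miR-34 and miR-449 miRNAs were higher in 3 of 8 members, none of them under every scaling, and lower in 2, both under every scaling. miR-34a-5p, the more abundant of these 2, differed by -1.24. Cartilage-linked miR-455-3p and miR-455-5p were higher by 3.06 and 3.63. Of 5 miRNAs from hairpins that bypass the Microprocessor, the complex that cuts most miRNA hairpins out of their transcripts, 2 were lower, 1 of them under every scaling, and 3 were not called. Of the 377 miRNAs in no list, 116 were higher, 100 lower and 161 not called, with a median of 0.06. Under every scaling 69 of them were higher and 68 lower.

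Hairpins that lie within 10000 bases of each other on one strand were taken as clusters. The clusters in this paragraph were named after their values were seen. On the X chromosome, 8 of 9 miRNAs in an intron of Clcn5 (chrX:7237683-7248497) were higher in MEFs, all 8 under every scaling, and none was lower, among them miR-501-3p with 2473, 3253 and 3526 reads in MEFs and 524, 583 and 642 in ESCs. miR-132 and miR-212 on chromosome 11 were higher in 4 of 4 strands under every scaling, with 2.61 for miR-132-3p. miR-191 and miR-425 on chromosome 9 were lower in 4 of 4, in 3 of them under every scaling, with -1.75 for miR-191-5p. The miR-322, miR-503, miR-542 and miR-450 hairpins (chrX:53047997-53054349) went both ways, with 7 of 11 strands higher, 1 lower and 3 not called, and under every scaling with 3 higher and 1 lower.

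The balance between the arms of a hairpin was compared for 137 hairpins with at least 10 reads of each arm in at least 2 libraries of each group. It does not depend on how libraries are scaled. By limma on the 5p value minus the 3p value, 38 hairpins (27.7%) passed an adjusted p of 0.05, 21 with more of the 5p arm in MEFs and 17 with less. The median size of the difference over all 137 was 0.45. The largest was that of miR-335, in an intron of the imprinted Mest gene. Its 5p arm had 11332, 18112 and 13472 reads in MEFs and 2619, 4226 and 3933 in ESCs, while its 3p arm had 532, 469 and 417 in MEFs and 1764, 2028 and 1992 in ESCs. The 5p value exceeded the 3p value by 4.90 ± 0.44 (SD, n = 3) in MEFs, against 0.87 ± 0.26 in ESCs (SD, n = 3), a difference of 4.03 (SE 0.29, limma adjusted p = 4.7e-08). miR-450b turned from the 5p arm in ESCs to the 3p arm in MEFs, with a ratio of 1.95 ± 0.16 (SD, n = 3) against -0.54 ± 0.17 (SD, n = 3).

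In miR-143 the 3p arm led in all 6 libraries, by 8.82 in MEFs and 11.98 in ESCs (5p minus 3p, -8.82 and -11.98). The 8 next largest differences after miR-335 and miR-143 were those of miR-450b, miR-543, miR-574, miR-154, miR-495, miR-376b, miR-30b and miR-708, with sizes from 1.57 to 2.49. The arm with more reads was a different one in the 2 cell types for 5 of the 38. Over all hairpins with both arms among the 856 miRNAs, both were called in 216, and in 210 of these they had the same direction. Under every scaling both arms were called in 140 hairpins, with the same direction in 138. The 6 hairpins with opposite directions were miR-335, miR-450b, miR-485, miR-543, miR-598 and miR-669l. Both directions held under every scaling for miR-335 and miR-669l only. The 3p arm of miR-669l had 1, 1 and 0 reads in MEFs and none in ESCs. It entered the comparison through its MEF reads alone, and its call rests on the value given to 0 reads.

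**Figure D5:**
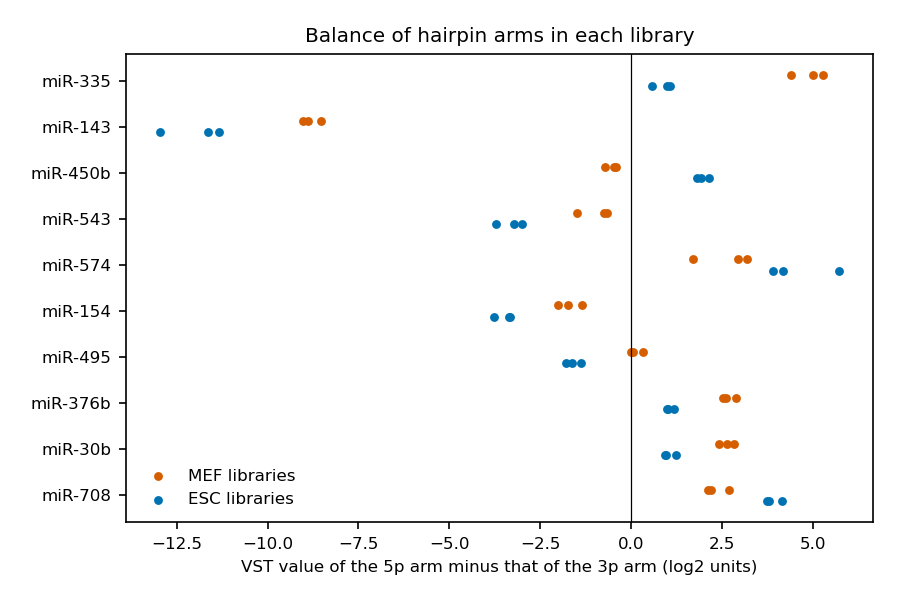
VST value of the 5p arm minus that of the 3p arm (horizontal axis, log2 units) in each MEF and ESC library for the 10 hairpins with the largest called difference. Points right of 0 have more of the 5p arm. The 10 hairpins were chosen on these values, so the gap between the groups is no separate result. The 3p arm of miR-574 had only 6, 14 and 11 reads in ESC 2, 3 and 4.

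ESC libraries held more different miRNAs, although they were less deep in miRNA reads, the depth meant here. This is a count of distinct miRNAs, whereas the paper's statement that MEFs expressed more miRNAs refers to the composition of small RNAs. At least 1 read was found for 785, 787 and 783 miRNAs in ESC 2, 3 and 4 and for 740, 743 and 752 in MEF 13, 14 and 15. Expected at the depth of the smallest library, the MEF numbers were 703.7, 709.9 and 717.0. The groups did not overlap (exact permutation p = 0.1, the smallest that 3 libraries against 3 allow). Of the 856 miRNAs, 30 had reads in MEF libraries only and 61 in ESC libraries only. A count of 0 allows up to 3 reads in a library of this depth, and amplified reads are not independent molecules, so floors cover counting error only.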

How the data were processed

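Small RNA libraries from 12 samples of 5 groups were sequenced, and 3 MEF and 3 ESC libraries were compared. Per the paper's methods and the submitters' processing notes, the authors removed adaptors and low quality tags, counted miRNA reads (build mm8) and deposited log2-scale values, normalized and variance stabilized with DESeq. The aligner and the miRBase release are not given in the sources used here. Reads were recovered by inverting the transformation, and served for levels and shares. The deposited values were tested with limma 3.58.1 (R 4.3.3), fitting the 5 group means to all 12 libraries, with a variance trend and Benjamini-Hochberg adjustment over 856 miRNAs. Hairpin arms were compared in the same way, and shares by two-sided exact permutation tests. The code was tested on simulated data. Alternatives changed the scaling, filter, pseudocount, model and replicates. Named miRNAs were those with the 12 largest differences in each direction, the 10 largest shares per group, up to 4 most abundant members of each list and those against its direction, the 10 largest arm differences and the 10 most abundant with an interval within 1 of 0; some were left out for space, and further ones are said to have been chosen after their values were seen. The members and lists were chosen with earlier results of these data known. Sequences and coordinates are from RefSeq (GRCm38.p6).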

Additional observations from a re-analysis of the deposited data

How the results depend on the processing

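No paired analysis was possible because MEFs and ESCs share no replicate numbers. Leaving out 1 library at a time gave 574 to 593 called miRNAs, 280 to 292 of them higher and 287 to 301 lower in MEFs. With 100 reads required in each library of a group, 358 of 405 were called, 186 higher and 172 lower, with fewer miRNAs tested, and 126 list members were lower. Scaling to the library total gave 180 higher, and 111 list members higher against 194. With 100 reads of each arm, 23 of 60 hairpins were called. As log2 ratios of shares, the miR-290 cluster ranged from -16.93 without MEF 13 to -13.99 without MEF 15, against -14.49. Mean normalized reads gave 2.27 for let-7, against 1.38 for shares, and -5.83 for the miR-183 cluster, against -6.71. They gave 8.69 for the muscle miRNAs, against 7.79, and 2.18 for miR-21, against 1.29. Dlk1-Dio3 had 0.86 against -0.04, the AAAGUGC seed -1.61 against -2.51 and the miR-290 cluster -13.49 against -14.49. Shares without the most abundant miRNA of each group gave -6.53 for the miR-183 cluster, 0.04 for Dlk1-Dio3 and -2.43 for the AAAGUGC seed. The difference in detected miRNAs, -40 at 1 read, was -52 at 10 reads, -50.7 at 100 reads and -71 at equal depth.

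Small differences turned sign with the scaling. Upper quartile scaling gave 0.55 for miR-103-3p, 0.04 for miR-298-5p and 0.14 for miR-30e-5p. TMM-type scaling and voom gave the same values for miR-130a-3p (-0.43), miR-134-5p (-0.03), miR-148a-3p (-0.11), miR-151-3p (-0.02), miR-30a-5p (-0.10) and miR-30d-5p (-0.16), and voom gave -0.37 for miR-140-3p. Scaling to the library total gave -0.81 for miR-130a-3p, -0.41 for miR-134-5p, -0.75 for miR-140-3p, -0.50 for miR-148a-3p, -0.41 for miR-151-3p, -0.46 for miR-26a-5p, -0.48 for miR-30a-5p, -0.55 for miR-30d-5p and -0.30 for miR-541-5p. Of 107 named miRNAs, 86 kept direction and side of the threshold under every alternative.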
